A study of Mus musculus with 12 samples.

Results

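Mature late granulocytes, the cells nearest to a finished neutrophil among bone marrow cells enriched for the c-Kit receptor, made up 7064 of 32701 cells (21.6%) in 12 droplet single-cell libraries from mice. They were selected on their own transcripts. A cell entered the class when S100a8, S100a9, Camp and Ngp together gave at least 1000 of every 10000 of its unique molecular identifiers (UMIs, counted mRNA molecules), and Retnlg, Ifitm6 and Ly6g together gave at least 10 of every 10000. The sum of the last 3 genes is called the maturity score. The 2885 cells that met the first cut and missed the second are called immature late granulocytes, and the other 22752 cells met neither the first cut nor, in all but 125 of them (0.549%), the second. The levels of these 7 genes chose the members and are given as a description, without a test. The maturity cut ran through a continuum: 418 members scored from 10 to under 12 and 405 cells that met the first cut scored from 8 to under 10. The first cut fell where few cells lay, with 21 members between 1000 and 1200 and 14 cells with a maturity score of at least 10 between 800 and 1000.

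Neutrophils are short-lived white blood cells that kill microbes. Their precursors fill granules in a fixed order: primary (azurophil) granules with Elane, Mpo and Prtn3 come first, secondary (specific) granules with Ltf, Lcn2 and Camp follow, and tertiary (gelatinase) granules with Mmp9 come last, while cell division stops. C/EBP transcription factors drive much of the secondary granule program, and Ezh2, the catalytic subunit of Polycomb repressive complex 2, places the repressive trimethyl mark on lysine 27 of histone H3.

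The study compared 4 genotypes at 3 times after induction, with 1 library for each genotype and time. WT mice carried no Mx1-Cre. E2-KO mice carried Mx1-Cre with Ezh2 f/f, G12D mice carried Mx1-Cre with 1 NRas G12D allele, and G12D/E2-KO mice carried Mx1-Cre with both. All mice, WT included, received 5 injections of pIpC, for which the labels give an age of 8 to 12 weeks and the study's text a younger one. The compound switches on Mx1-Cre in interferon-responsive cells and is itself an inflammatory stimulus. Marrow was collected at T1, which was 2 weeks after induction, at T2, after 2 months, and at T3, after 4 months, and c-Kit+ cells were enriched on magnetic columns. The 3 times served as the replicates of a genotype, and time was a term of the genotype fit or paired the libraries. The p-values of that fit thus measure the spread between libraries left after genotype and time, not the spread between mice of 1 time. The number of mice behind a library is not given in the sources used here.

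The libraries held 195 to 1067 mature cells each and 791257 to 5772937 UMIs over those cells, with a median of 2869 to 5190 UMIs per cell. The G12D T1 table repeated 2896 cells of the G12D/E2-KO T1 table, and these were removed from G12D T1 before any value was computed. Xist, an RNA of the inactive X chromosome of females, stood at 496 to 572 CPM (UMIs per 1000000 UMIs of the mature cells of a library) in the WT, E2-KO and G12D libraries of T3 and between 0 and 0.346 CPM in the other 9, so at T3 sex and the G12D/E2-KO genotype cannot be told apart. G12D/E2-KO T3 stood apart in the make-up of its mature cells: mitochondrially encoded genes gave 303 of every 10000 UMIs, against 136 to 215 in the other 11 libraries, ribosomal protein genes gave 1063 against 529 to 756, and S100a8 was lowest there at 109740 CPM. Markers of other lineages were low: erythroid genes gave 5.28 to 37.2 of every 10000 UMIs, with the highest sum in E2-KO T3, and the monocyte, B lymphoid, basophil and megakaryocyte lists gave at most 1.07 of every 10000 in any library. The macrophage list gave at most 1.26 and the dendritic list 3.65 to 5.61 of every 10000. Cd3d, a T cell receptor subunit, was the exception in the T and NK list, at 173 to 203 CPM in G12D and 2.23 to 6.53 CPM in WT (5.37 ± 1.36 on the log2 scale, edgeR adjusted p 0.57), where DESeq2 gave an adjusted p of 0.030, with the list at most 2.06 of every 10000. Kit, the enrichment marker, averaged 14.6 CPM in mature cells, 22.8 CPM in immature late granulocytes and 65.6 CPM in other cells.

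The 5 marker genes of the class, Retnlg, Ifitm6, Ly6g, S100a6 and Lcn2, were each higher in mature than in immature late granulocytes in 12 of 12 libraries. Retnlg, Ifitm6 and Ly6g had to be, since they set the cut. S100a6, a small calcium-binding protein that the cut did not use, averaged 922 CPM in mature cells, 137 CPM in immature late granulocytes and 54.8 CPM in other cells. Lcn2, the protein of secondary granules that binds bacterial iron carriers, averaged 9312, 4265 and 106 CPM in the same order of classes. The members and markers were chosen with earlier results of these data known, so the direction of S100a6 and Lcn2 is also a description and no test. The cell cycle list did not set the class apart in this way. Its median over libraries was 133 of every 10000 UMIs in mature cells, 144 in immature late granulocytes and 111 in other cells. Mature cells thus lay above other cells on this list, and whether they had stopped dividing was not tested.

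The sequences before the start sites of genes that carry the class are shown because they hold the 8-base core that C/EBP factors bind in its relaxed form, written TTGCNNAA or, on the other strand, TTNNGCAA. Each line gives the 250 bases upstream of the RefSeq start in mouse build GRCm38.p6, 5′ to 3′ on the strand of the gene, with matches in capitals.
Retnlg, chr16:48872358-48872607, plus strand: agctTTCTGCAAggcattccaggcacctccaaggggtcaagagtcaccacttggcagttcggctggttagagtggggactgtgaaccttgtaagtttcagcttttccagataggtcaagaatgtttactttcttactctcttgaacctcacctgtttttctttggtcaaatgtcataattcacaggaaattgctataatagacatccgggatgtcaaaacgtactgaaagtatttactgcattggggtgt
Ngp, chr9:110419558-110419807, plus strand: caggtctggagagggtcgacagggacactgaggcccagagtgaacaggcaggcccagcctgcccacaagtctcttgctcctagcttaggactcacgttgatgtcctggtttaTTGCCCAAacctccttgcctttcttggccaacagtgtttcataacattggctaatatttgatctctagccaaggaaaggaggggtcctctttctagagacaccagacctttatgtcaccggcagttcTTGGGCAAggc
Ltf, chr9:111019042-111019291, plus strand: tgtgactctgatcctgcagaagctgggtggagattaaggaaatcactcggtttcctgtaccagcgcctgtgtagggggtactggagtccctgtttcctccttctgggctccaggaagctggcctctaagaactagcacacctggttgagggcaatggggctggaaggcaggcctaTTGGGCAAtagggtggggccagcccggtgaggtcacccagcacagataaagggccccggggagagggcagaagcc
Mmp8, chr9:7558179-7558428, plus strand: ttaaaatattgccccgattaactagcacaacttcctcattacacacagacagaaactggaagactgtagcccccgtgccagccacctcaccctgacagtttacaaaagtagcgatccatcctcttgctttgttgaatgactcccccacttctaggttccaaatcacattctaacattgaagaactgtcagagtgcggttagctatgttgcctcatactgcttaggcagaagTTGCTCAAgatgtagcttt
The match of Mmp8 begins 19 bases before the start, that of Ltf 75 bases before it and those of Ngp 138 and 11 bases before it. Among the 7 genes of the selection rule, 4 held a match (S100a9, Ngp, Retnlg and Ly6g), and among the 12 genes of the secondary granule list with a RefSeq entry, 4 did (Ltf, Lcn2, Mmp8 and Anxa1). Over all 27025 promoters of the same length, 9.55% held one. Of the 12 matched genes among the 15 with the largest ratios of mature to immature level, 3 held one (25.0%), Ltf and the rule genes Retnlg and Ly6g. None of the 13 matched genes among the 15 most reduced in mature cells held these letters in this window. The motif was chosen after the values were seen. A match describes the sequence only, and binding was not measured.

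Mature cells were dominated by very few transcripts. The 10 most abundant genes gave 49.0% of all their UMIs, led by S100a8 at 167590 CPM (SD 24298, n = 12 libraries) and S100a9 at 118370 CPM (SD 17059), which encode the subunits of calprotectin. Camp, the cathelicidin antimicrobial peptide, and Ngp, neutrophilic granule protein, followed at 78053 and 54211 CPM. Outside the selection rule the most abundant were Tmsb4x, an actin-binding peptide, at 25887 CPM, and Lyz2, lysozyme, at 12168 CPM. Mature cells also held fewer kinds of transcript. After every cell was thinned to 1400 UMIs, the median number of genes per mature cell was 448 to 583 across libraries. It was 539 to 635.5 in immature late granulocytes and 670 to 731 in other cells. S100a8, S100a9, Camp and Ngp, which chose the members, took fewer UMIs outside the class. S100a8 averaged 106260 CPM in immature late granulocytes and 3104.5 CPM in other cells. Thinned mature cells thus had fewer UMIs left for other genes, and the part of this in the gene numbers was not tested.

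Of 4100 genes with at least 20 CPM in the mature or the immature class, 68 were at least 2-fold higher in mature cells by mean CPM and higher in 12 of 12 libraries. By the same rule 238 were at least 2-fold lower by mean CPM and lower in 12 of 12, and single libraries could lie under 2-fold. CPM was taken over all UMIs, so the high rule genes of mature cells lower the CPM of all other genes there. Among genes with at least 100 CPM in the higher class, the largest ratio belonged to Mmp9, the gelatinase of tertiary granules, at 145 CPM (SD 50.5, n = 12 libraries) in mature and 7.08 CPM in immature cells. Fpr2, a receptor for formylated bacterial peptides, stood at 137 against 19.7 CPM, and its ratio was 4.52 to 11.9 across the 12 libraries. The other genes with the largest ratios included Lgals3, a galactose-binding lectin, at 4.19 times the immature level, Pirb, an inhibitory receptor of myeloid cells, at 3.43 times and Ltf, lactoferrin, at 2.63 times. On the low side, Elane, neutrophil elastase, averaged 296 CPM in mature and 4729 CPM in immature cells, a level 7.88 to 34.8 times higher in the immature class across libraries. Mpo was 11.1 times, Prtn3 9.84 times and Ms4a3, a membrane gene of granulocyte-monocyte precursors, 4.12 times higher in the immature class.

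**Figure D1:**
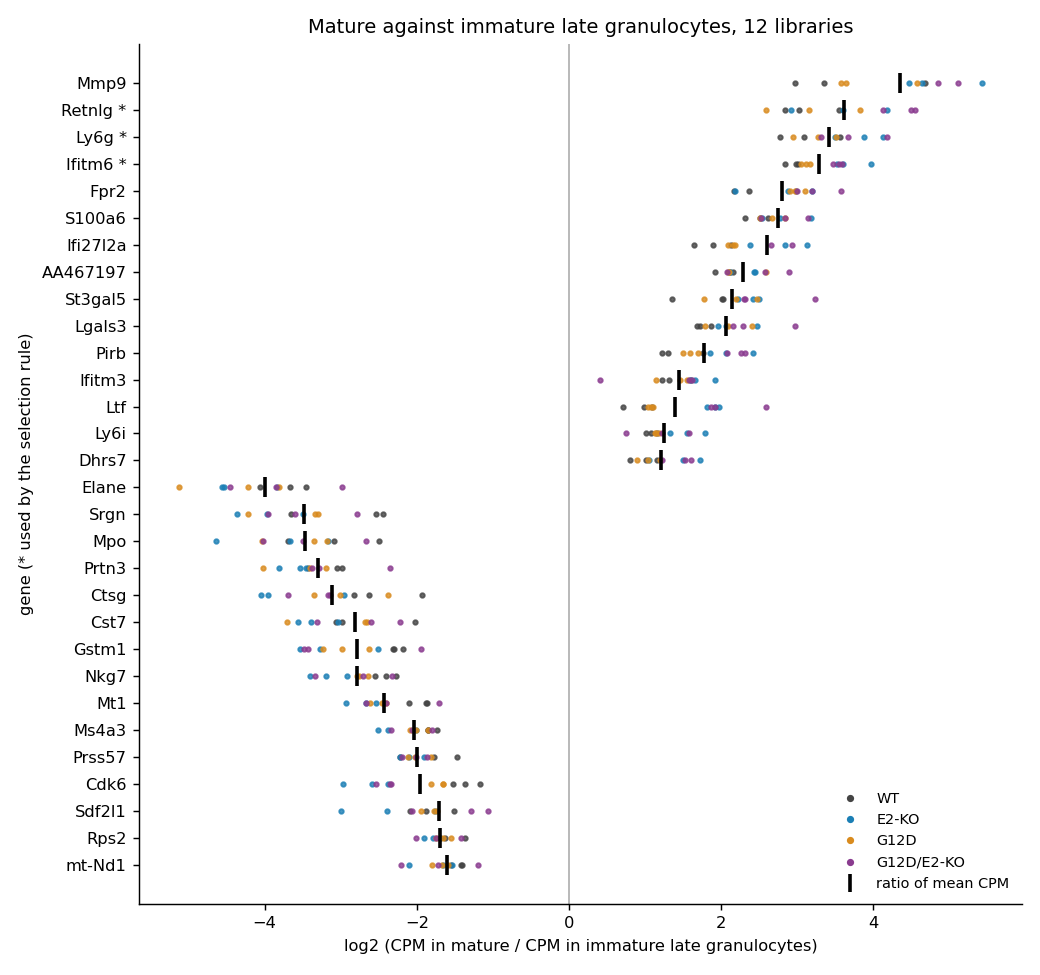
Each row is a gene, each dot the log2 ratio of its CPM in mature to that in immature late granulocytes in 1 of 12 libraries coloured by genotype, and the black tick the ratio of the mean CPM. Libraries with no UMI of the gene in either class are not drawn, and asterisks mark genes of the selection rule. The dots of the upper 15 genes lie right of 0 and those of the lower 15 left of it, with Mmp9 at 145 against 7.08 CPM and Elane at 296 against 4729 CPM at the ends.

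By function, genes of early granules were lower and genes of late granules mostly higher in mature cells. In the primary granule list 8 genes reached 20 CPM in the mature or immature class and all 8 were lower in mature cells in every library. In the secondary granule list 11 of 12 such genes were higher in every library, and the tertiary granule list had 4 of 5. All 7 NADPH oxidase genes, which make the superoxide of the oxidative burst, reached that level and 6 of them were higher in every library, for example Cybb at 1071 against 687 CPM. Among chemotaxis and adhesion receptors, 4 of 11 were higher in every library, among them C5ar1, the receptor for complement C5a, at 97.2 against 43.9 CPM, and 1 was lower in every library, the integrin subunit Itga4. Of the cytosolic ribosomal proteins, 83 of 83 were lower in mature cells, at a median of 0.486 times the immature level, as were 11 of 11 mitochondrially encoded genes at 0.412 times. Over all 4100 genes at that level 6.68% were higher and 33.1% lower in mature cells in every library, and the median ratio was 0.818. CPM was taken over all UMIs, rule genes included, and S100a8 averaged 167590 CPM in mature and 106260 CPM in immature cells. The selection thus lowers the CPM of other genes in mature cells, and its part in the excess of lower genes was not tested. The classes were split on the transcripts of the same cells, so these counts are a description.

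Transcription factors of the lineage lay on both sides. Cebpe, needed for secondary granules, stood at 985 and 1006 CPM in mature and immature cells. Cebpa, Gfi1, Myb and Myc, which act in earlier precursors, were lower in mature cells in 12 of 12 libraries. Mxd1, an antagonist of Myc, was higher in 12 of 12 at 72.6 against 37.4 CPM, and Klf2, a factor of quiescent cells, at 58.7 against 17.1 CPM.

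Within the class the maturity score still marked a gradient. There were 2997 mature cells with a score of 10 to under 25, 2181 with 25 to under 50, 1319 with 50 to under 100 and 567 with 100 or more. Libraries entered a bin with at least 20 cells, which all 12 did below 100 and 9 did at 100 or more. E2-KO T1, E2-KO T2 and G12D T2 held 11, 4 and 14 cells there and were left out, so the means of the highest bin cover fewer libraries. Mmp8, neutrophil collagenase, averaged 7.31, 21.9, 142 and 1041 CPM over these bins in order. Mmp9 averaged 49.3, 133, 296 and 833 CPM, and S100a6 468, 840, 1692 and 4183 CPM. Slpi, a secreted inhibitor of elastase, went from 391 to 1565 CPM and Selplg, the P-selectin ligand used in rolling on vessel walls, stood at 29.3, 28.4, 38.8 and 120 CPM. Median UMIs per cell went the other way, from 4914 in the lowest bin to 2667 in the highest.

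Proliferation genes ran against the score. Top2a, a topoisomerase of dividing cells, averaged 284, 231, 74.1 and 14.0 CPM across the bins. Mki67 went from 248 to 17.3 CPM and Stmn1, a regulator of microtubules, from 1006 to 83.8 CPM. As a list, the 25 cell cycle genes gave 156, 136, 66.9 and 35.8 of every 10000 UMIs. On this list the lowest bin thus lay near the immature class, whose median over libraries was 144 of every 10000. Primary granule genes went from 15.8 to 4.63 of every 10000, while the median of the immature class was 109. Tertiary granule genes went from 10.8 to 30.2 and interferon response genes from 16.8 to 40.1 of every 10000. The score was built from Retnlg, Ifitm6 and Ly6g in the same cells, so these are descriptions without a test.

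**Figure D2:**
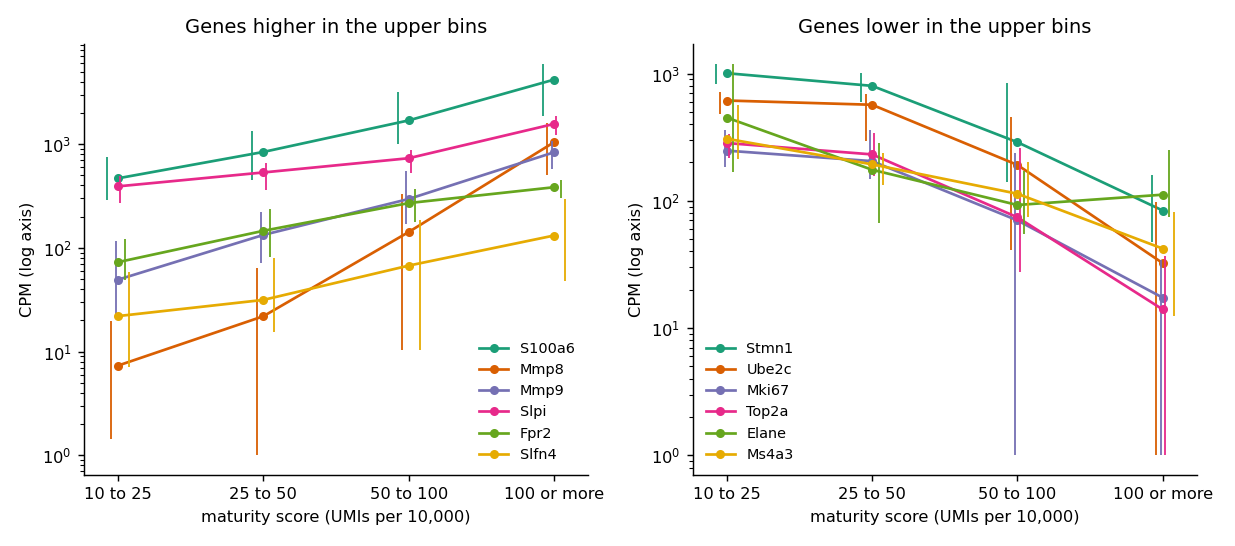
Mean CPM on a log axis over libraries with at least 20 cells in a bin, for bins of the maturity score in UMIs per 10000, with vertical lines from the lowest to the highest library and zeros drawn at 1. The left panel holds genes higher in the upper bins, with Mmp8 at 7.31 CPM in the lowest and 1041 CPM in the highest bin, and the right panel genes lower there, with Top2a at 284 and 14.0 CPM.

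The share of cells in the class varied between libraries, and the share tests of genotype given below did not pass after adjustment. Shares are of the cells kept by the c-Kit columns, not of whole marrow. Kit was on average lower in mature than in immature late granulocytes or other cells, as given above. The part of the enrichment in these shares was not tested. In WT, 25.7%, 26.5% and 30.8% of all cells were mature late granulocytes at T1, T2 and T3. In E2-KO the shares were 9.61%, 6.62% and 10.5%, below all 9 other libraries. G12D stood at 28.2%, 24.9% and 34.8%, below, within and above the WT range at T2, T1 and T3. In G12D/E2-KO the share was 35.1% at T1, the highest of all 12 libraries, and 16.3% and 12.3% at T2 and T3. The 95% Wilson intervals, for counting error, were at most 3.70 percentage points wide. Those of E2-KO T3 and G12D/E2-KO T3 overlapped, as did those of G12D/E2-KO T1 and G12D T3 and those of G12D T2 and WT T1.

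Libraries were paired by time, with and without the Ezh2 deletion. WT lacked Mx1-Cre, and at T3 Xist differed within the pair of G12D/E2-KO and G12D, so Cre in the 3 pairs with WT and sex in that pair cannot be told apart from the deletion. Over these 6 pairs, the deletion changed the share of all cells by a mean log2 ratio of -1.13 (SD 0.84), lower in 5 of 6 pairs (exact sign-flip permutation test, two-sided, p = 0.0625, adjusted p = 0.0833 over 4 share tests). The pair that went the other way was G12D/E2-KO against G12D at T1. NRas G12D, whose pairs have the same limits with WT and between G12D/E2-KO and E2-KO at T3, changed it by 0.60 (SD 0.79), higher in 5 of 6 pairs, with the same exact p of 0.0625 and adjusted p of 0.0833. Neither passed 0.05, and the smallest p that 6 pairs allow is 0.03125.

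Among late granulocytes alone, the mature fraction was 77.0%, 76.9% and 77.2% in the WT libraries, a range of under 1 percentage point. It was 52.2%, 42.2% and 56.8% in E2-KO, below all 9 other libraries. The intervals of E2-KO T1 and E2-KO T3 both overlapped that of G12D/E2-KO T2 at 57.8%. It spread from 64.4% to 86.4% in G12D and from 57.8% to 80.3% in G12D/E2-KO. Ezh2 deletion changed this fraction by a mean log2 ratio of -0.37 (SD 0.34, lower in 5 of 6 pairs, exact p = 0.0625, adjusted p = 0.0833) and NRas G12D by 0.21 (SD 0.32, higher in 4 of 6 pairs, exact p = 0.1875). Where the maturity cut left out Ifitm6, deletion lowered both shares in 6 of 6 pairs, and the log2 ratio became -1.48 of all cells and -0.72 of late granulocytes (exact p = 0.03125 each, unadjusted and the smallest possible). This was the 1 setting tried at which a share test passed 0.05, and it gave NRas G12D a log2 ratio of 0.51 of all cells (exact p = 0.21875) and 0.12 of late granulocytes (higher in 3 of 6 pairs, exact p = 0.875). Leaving out Retnlg or Ly6g instead gave the deletion -0.33 and -0.35 of late granulocytes (exact p = 0.09375 each), and a granulocyte cut of 2000 gave -0.21 (exact p = 0.15625). The fraction depends on genes that themselves varied: Retnlg ran from 173 CPM in E2-KO T2 to 1288 CPM in G12D/E2-KO T1 within the class, and Ly6g from 217 to 619 CPM. A cell share also cannot separate fewer cells of the class from more cells of other classes.

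**Figure D3:**
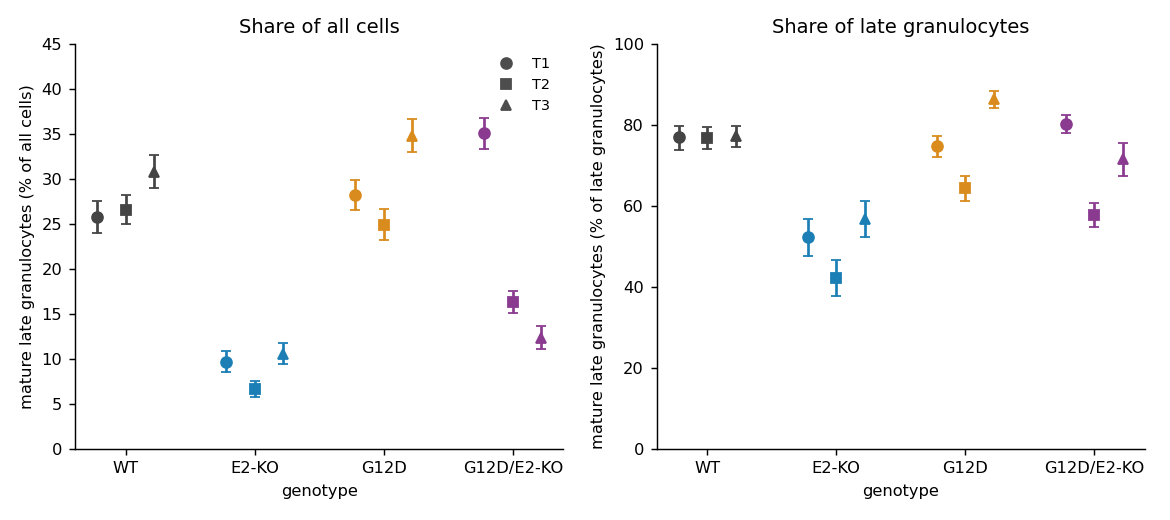
Mature late granulocytes as a percentage of all cells (left) and of late granulocytes (right) in each of 12 libraries by genotype, with 95% Wilson intervals for counting error and marker shapes for T1, T2 and T3. The 3 E2-KO libraries lie lowest in the right panel, between 42.2% and 56.8%, while the 3 WT libraries lie together near 77%.

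The score also varied within the class, as a description since it set the cut. Its median per cell was 30.2, 25.9 and 28.8 in WT and 22.6, 24.2 and 27.1 in E2-KO. The percentage of mature cells at 100 or more was 7.77%, 6.76% and 6.80% in WT, 4.68%, 2.05% and 7.35% in E2-KO. G12D held 9.15%, 2.33% and 11.6% and G12D/E2-KO held 12.0%, 4.89% and 11.8%. In each of the 4 genotypes T2 held the smallest percentage.

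Gene changes between genotypes were tested on UMIs summed over the mature cells of each library, with genotype and time in 1 edgeR quasi-likelihood fit of 8718 genes and Benjamini-Hochberg adjustment over all of them. The targeted genes came first. Ezh2 stood at 47.1, 51.6 and 37.4 CPM in WT and at 9.16, 8.85 and 7.94 CPM in E2-KO. It was 42.9, 43.6 and 35.9 CPM in G12D and 10.2, 16.1 and 26.5 CPM in G12D/E2-KO. The E2-KO libraries did not overlap with WT, the fitted change was -2.45 ± 0.28 (log2, SE) with an adjusted p of 6.8e-06 from edgeR, and in G12D/E2-KO the level was highest at T3. Nras mRNA was 50.2 to 60.5 CPM in WT and 43.0 to 63.5 CPM in G12D/E2-KO and did not pass in any contrast. Reads were taken near the 3′ ends of transcripts, so the Nras level says nothing of the point mutation, and whether Ezh2 reads fell in the deleted exons was not tested.

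In E2-KO against WT, 92 genes passed an adjusted p of 0.05, 1.06% of those tested, 65 higher and 27 lower. The G12D contrast called 12 (0.138%), 10 higher and 2 lower, and G12D/E2-KO against WT called 266 (3.05%), 172 higher and 94 lower. G12D/E2-KO against G12D called 207 (2.37%), 128 higher and 79 lower. These contrasts share libraries, the first 3 the WT and the last 2 the G12D/E2-KO, so their lists are not independent. The counts moved with single libraries: without G12D/E2-KO T3, the library with the highest mitochondrial and ribosomal sums, the E2-KO count was 150, the G12D count 35 and the G12D/E2-KO count against WT 474, and without E2-KO T3, WT T1 and WT T3 in that order they were 27, 5 and 83. G12D/E2-KO against G12D gave 73 without G12D T1 and 303 without G12D/E2-KO T3.

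Of 19 Polycomb genes tested, Ezh2 fell and Bmi1 rose in E2-KO, and the other 17 did not pass, where 1.06% of all genes tested passed. Bmi1 (ENSMUSG00000026739), a subunit of Polycomb repressive complex 1, stood at 4.47, 4.22 and 5.46 CPM in WT and at 55.9, 53.1 and 38.6 CPM in E2-KO. In G12D it was 5.24, 3.44 and 6.40 CPM and in G12D/E2-KO 50.6, 57.2 and 57.8 CPM, so all 6 libraries with the Ezh2 deletion lay above all 6 without it. The change was 3.28 ± 0.25 for E2-KO against WT (adjusted p 3.1e-09, edgeR), and G12D/E2-KO against G12D gave 3.26 ± 0.23 (9.5e-10). With the cells shared by the T1 tables left in, both calls were lost: the E2-KO change was 3.24 ± 0.74 with an edgeR adjusted p of 0.17, and that of G12D/E2-KO against G12D 1.81 ± 0.56 with 0.51. Neither table with shared cells belongs to the E2-KO contrast, but the fit estimates 1 spread over all libraries. In immature late granulocytes the same libraries held 49.5 to 75.5 CPM with the deletion and 7.35 to 16.1 CPM without it.

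H1f0, a linker histone of cells that stop dividing, followed the same split. It was 29.6, 52.6 and 19.7 CPM in WT and 231, 258 and 106 CPM in E2-KO, then 40.0, 71.2 and 33.1 CPM in G12D and 229, 233 and 270 CPM in G12D/E2-KO. The changes were 2.48 ± 0.23 and 2.27 ± 0.22, with edgeR adjusted p of 6.8e-06 and 9.8e-06. Ptms, the small acidic protein parathymosin, rose by 1.40 ± 0.26 in E2-KO (adjusted p 0.0067) and by 2.17 ± 0.24 in G12D/E2-KO against G12D (1.2e-05). Chchd7, a mitochondrial protein, rose by 1.01 ± 0.19 and 1.22 ± 0.17. Mt1, a metal-binding metallothionein, was 57.0 to 62.3 CPM in WT and 84.7 to 128 CPM in E2-KO, with changes of 0.80 ± 0.17 (adjusted p 0.019) and 1.19 ± 0.17 (1.0e-04) in the same edgeR contrasts. Uhrf1, which helps to copy DNA methylation, rose by 0.77 ± 0.17 (adjusted p 0.019), and Tinagl1, Lrrk2, Prkar2a and Gm15013 also rose. When each library was left out in turn, H1f0 and Bmi1 passed in 12 of 12 fits, Ptms, Chchd7, Tinagl1 and Mt1 in 8, Uhrf1 in 7, Lrrk2 in 6 and Prkar2a in 4.

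Among the decreases was Mmp8 (chromosome 9, 7558456 to 7568485, plus strand, mm10), whose upstream sequence was given with those of Retnlg, Ngp and Ltf. It stood at 166, 66.5 and 110 CPM in WT and 30.2, 11.4 and 44.3 CPM in E2-KO. G12D held 136, 37.9 and 155 CPM and G12D/E2-KO 87.8, 23.95 and 71.0 CPM. E2-KO lay below WT at each time and did not overlap with it, and T2 was lowest in every genotype. The change was -2.15 ± 0.26 in E2-KO (edgeR adjusted p 6.0e-05), -1.16 ± 0.21 in G12D/E2-KO against WT (0.0031) and -0.94 ± 0.21 in G12D/E2-KO against G12D (0.020). Without time in the fit the E2-KO change was -2.03 with an adjusted p of 0.36. Mmp8 was higher in each higher bin of the maturity score. The percentage of mature cells at 100 or more was lower in E2-KO than in WT at T1 and T2 and higher at T3, at 7.35% against 6.80%. In cells with a score under 50, a setting added after seeing the data, the E2-KO change was -2.52 with an adjusted p of 0.28. The part of cell maturity in the Mmp8 difference was not tested further. The other 11 secondary granule genes tested did not pass in E2-KO, among them Ltf at 4362 to 5316 CPM in WT and 5230 to 5443 CPM in E2-KO.

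Arf5, a small GTPase of vesicle traffic, was 309, 368 and 302 CPM in WT and 140, 145 and 126 CPM in E2-KO. G12D held 291 to 374 CPM and G12D/E2-KO 127 to 170 CPM, so the libraries split by Ezh2 without overlap. Its change was -1.33 ± 0.15 in E2-KO (adjusted p 5.4e-06, edgeR) and -1.41 ± 0.15 in G12D/E2-KO against G12D. Cdk6, a kinase of the entry into the cell cycle, fell by 1.37 on the log2 scale in E2-KO (SE 0.25, adjusted p 0.0042) and passed in 10 of 12 fits that left out a library. Ldha, lactate dehydrogenase, was the 1 glycolysis gene of 17 that passed, at -0.68 ± 0.16, and Clec4e, a receptor for mycobacterial glycolipids, the 1 of 23 pattern recognition and Fc receptor genes, at -1.28 ± 0.32. Ldha passed in 5 and Clec4e in 3 of the 12 such fits. Over all genes tested 1.06% passed in E2-KO against WT. Vimp, Sft2d1, Mrgpra2b, Rnf26, Fxyd5, Nqo2 and Inhba fell as well, with changes from -1.16 to -0.94.

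Pf4, platelet factor 4, a marker of megakaryocytes and platelets, passed the test as lower than in WT in all 3 mutant genotypes, and in G12D/E2-KO its direction depended on the granulocyte cut. It stood at 23.7, 19.6 and 24.3 CPM in WT and 8.25, 10.1 and 5.67 CPM in E2-KO. G12D held 4.97, 6.51 and 6.40 CPM and G12D/E2-KO 4.16, 13.2 and 21.8 CPM, the last within the WT range. The E2-KO level rested on 5 to 9 UMIs per library. The changes from WT were -1.55 ± 0.38 in E2-KO (edgeR adjusted p 0.045, passing in 4 of 12 fits that left out a library), -1.97 ± 0.30 in G12D (0.0026, 12 of 12) and -1.31 ± 0.29 in G12D/E2-KO (0.014, 9 of 12). With a granulocyte cut of 500 in place of 1000 the G12D/E2-KO change turned to 0.36 (adjusted p 0.54), and with a cut of 2000 the call was lost in each of the 3 contrasts. As a list, megakaryocyte and platelet markers gave 0.323 to 0.409 of every 10000 UMIs in WT, 0.113 to 0.229 in E2-KO, 0.107 to 0.122 in G12D and 0.152 to 0.445 in G12D/E2-KO. The part of RNA from other cells in the Pf4 changes was not tested.

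**Figure D4:**
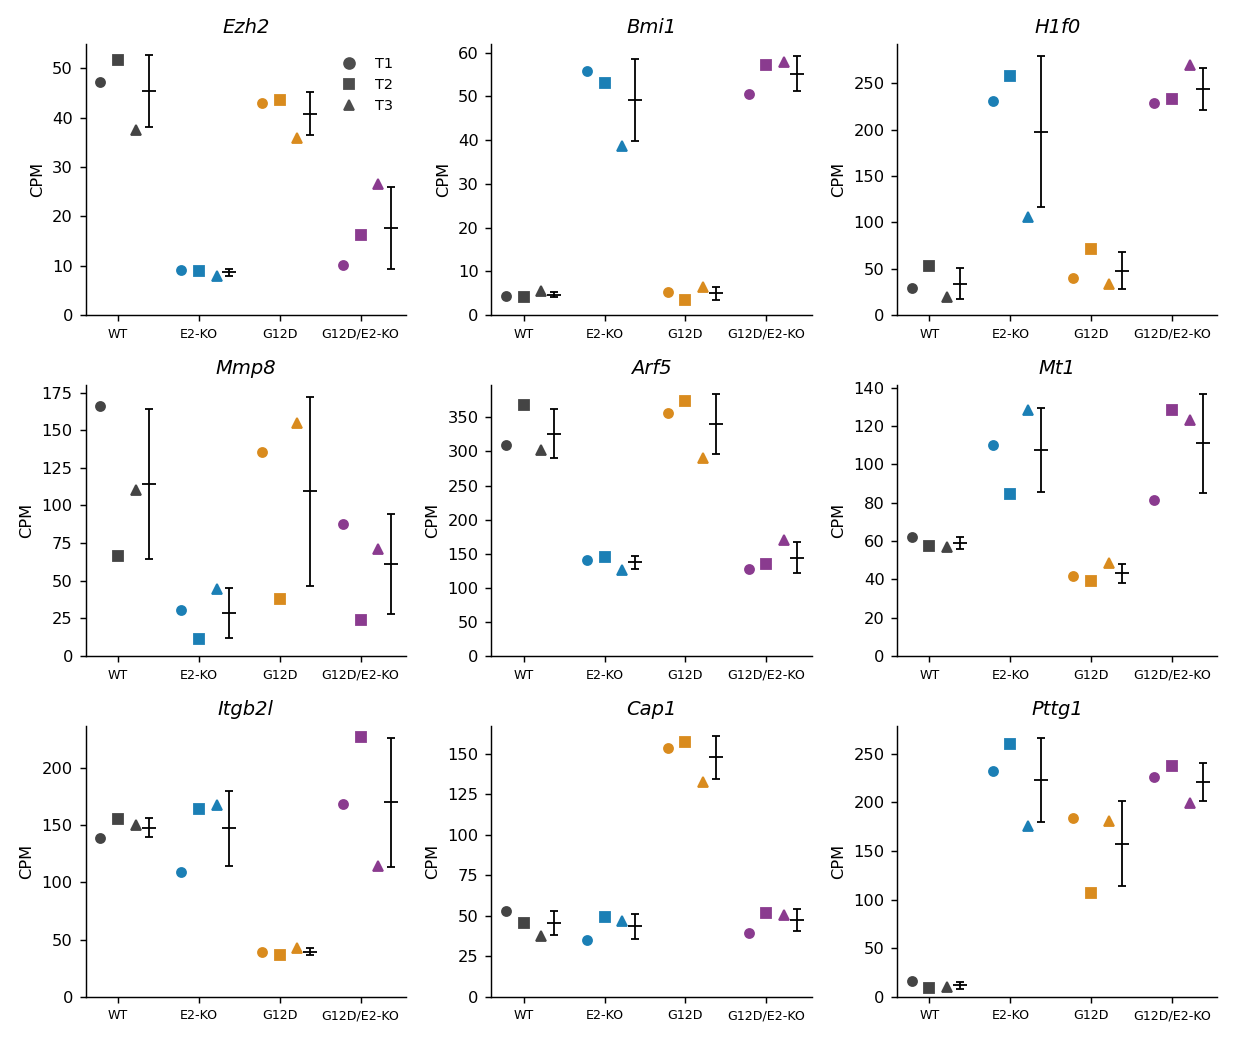
CPM summed over the mature late granulocytes of each library for 9 genes, by genotype, with marker shapes for T1, T2 and T3 and black bars for the mean and SD of 3 libraries. Ezh2, Bmi1, H1f0, Arf5 and Mt1 split by the Ezh2 allele, Cap1 and Itgb2l set the 3 G12D libraries apart, and Pttg1 sets the 3 WT libraries apart at 9.18 to 15.8 CPM.

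In G12D, 4 genes passed at an average of at least 5 log2 CPM with the same direction at 3 of 3 times: Pttg1, Cap1, Fam177a and Itgb2l. Cap1, which helps actin filaments to turn over, was 52.6, 45.7 and 37.7 CPM in WT and 154, 157 and 132 CPM in G12D, a change of 1.67 ± 0.15 (edgeR adjusted p 2.2e-07). In E2-KO it was 34.8 to 49.3 CPM and in G12D/E2-KO 39.5 to 51.8 CPM. Itgb2l, an integrin beta subunit of granulocytes, was 139 to 155 CPM in WT and 39.5, 36.7 and 42.3 CPM in G12D (-1.93 ± 0.25, edgeR adjusted p 0.0056, and -1.26 with an adjusted p of 0.94 when the shared cells were left in), while G12D/E2-KO held 168, 227 and 115 CPM. In immature cells Itgb2l was 23.2 to 28.5 CPM in G12D and 97.7 to 119 CPM in WT. Both genes thus set the 3 G12D libraries apart from all 9 others, including those that carry the same NRas allele and the Ezh2 deletion. Pttg1, securin, which holds back the separation of sister chromatids, was 15.8, 9.18 and 10.4 CPM in WT and 107 to 260 CPM in the 9 mutant libraries. Fam177a rose by 1.08 ± 0.21 in G12D (edgeR adjusted p 0.048) and passed in 5 of 12 fits. The test of the interaction, which asks whether the change in G12D/E2-KO departs from the sum of both single changes, called 2 of 8718 genes (0.0229%): Pttg1 at -3.84 ± 0.29 (adjusted p 1.2e-07) and Cap1 at -1.68 ± 0.25 (0.0017). WT alone lacked Mx1-Cre, so Cre cannot be told apart from the alleles in this test or in any contrast with WT. At an unadjusted p of 0.05 the interaction called 316 genes, and DESeq2 called 6.

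Genes of the stefin A cluster, inhibitors of cysteine proteases, were higher in G12D/E2-KO mature cells. Of 6 members tested, Gm5483, BC100530, Stfa2 and Stfa3 passed against WT and against G12D, where 3.05% and 2.37% of all genes tested passed. Gm5483 was 0 to 2.41 CPM in WT and 15.9, 0.978 and 187 CPM in G12D/E2-KO, within the WT range at T2. Against WT, DESeq2 called Stfa2l1 and not Gm5483. Stfa2 was counted at 0, 1 and 0 UMIs in WT, 1, 0 and 0 UMIs in E2-KO, 1, 1 and 0 UMIs in G12D and 99, 10 and 69 UMIs in G12D/E2-KO (edgeR adjusted p 1.5e-07 against WT). Stfa3 was 0.496 to 2.06 CPM in WT, 6.81 to 10.1 CPM in E2-KO, 1.53 to 3.62 CPM in G12D and 83.5, 5.87 and 111 CPM in G12D/E2-KO. BC100530 was 1.64 to 5.21 CPM in WT and 284, 90.9 and 743 CPM in G12D/E2-KO (6.34 ± 0.76, edgeR adjusted p 0.011). Summed over 9 genes the cluster gave 0.191 to 0.407 of every 10000 UMIs in WT and 4.90, 1.62 and 19.6 in G12D/E2-KO. The rise was not particular to mature cells: in immature late granulocytes BC100530 was 0.722 to 1.67 CPM in WT and 247, 55.8 and 116 CPM in G12D/E2-KO. In the test given below of a difference between the classes, 0 of 6 members passed in G12D/E2-KO. Members of the cluster are near copies of each other, so reads assigned to a single member are uncertain.

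In the other lists at most 2 genes passed in 1 direction in G12D/E2-KO against WT, where 3.05% of all genes tested passed. Among primary granule genes Prtn3, proteinase 3, was the 1 of 9 to pass: it was 160 to 218 CPM in WT and 451, 349 and 589 CPM in G12D/E2-KO (1.02 ± 0.23, adjusted p 0.025, edgeR). In the cell cycle list 2 of 25 rose, Pcna by 0.80 ± 0.17 and Tubb5 by 0.73 ± 0.14. S100a6 was 562 to 690 CPM in WT and 986 to 1385 CPM in G12D/E2-KO (0.79 ± 0.21, adjusted p 0.047, passing in 6 of 12 fits). Capg, an actin capping protein, fell to 83.3, 44.0 and 48.3 CPM from 98.5 to 113 CPM in WT (-1.01 ± 0.21). Erythroid Car2 and Klf1 fell too, by 1.46 and 1.38 on the log2 scale, beside a summed erythroid list of 7.64 to 12.0 of every 10000 UMIs in G12D/E2-KO and 16.7 to 18.6 in WT. Macrophage markers Vcam1 and C1qc fell as well, beside the Pf4 change given above. The part of RNA from other cells in these last changes was not tested.

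Interferon response genes spread widely between the libraries of a genotype. As a list they gave 14.1 to 17.3 of every 10000 UMIs in WT. In G12D they gave 20.3, 12.6 and 38.8 and in G12D/E2-KO 47.0, 25.5 and 10.9. Ifi27l2a, an interferon-induced mitochondrial protein, was 17.1 to 61.6 CPM in WT, 788 CPM in G12D T3 and 2965, 1393 and 17.0 CPM in G12D/E2-KO. Of 26 genes of the list tested, edgeR called 0 in each contrast between genotypes and DESeq2 also 0. At an unadjusted p of 0.05 edgeR called 9 of the 26 for G12D/E2-KO against WT, where 17.9% of all genes tested passed that threshold. It called 1 for G12D (4.78% of all genes) and 0 for E2-KO (14.0%) against WT, and 0 for G12D/E2-KO against G12D (15.9%).

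Mature and immature late granulocytes of the same library allow a test of whether genotypes differed unequally in the summed counts of the classes. The classes were cut on transcripts of the same cells. A genotype that shifts which cells fall in a class therefore cannot be told apart from 1 that changes their genes. Immature cells held 1329 to 1613 CPM of Mpo in E2-KO and 532 to 799 CPM in WT, and the part of such unequal content was not tested. A fit of both sums with a term for each library tested 8646 genes for a difference between the change in mature and the change in immature cells. For E2-KO 35 genes passed (0.405%), 16 with a higher and 19 with a lower change in mature cells. For G12D 2 passed (0.0231%) and for G12D/E2-KO 62 (0.717%), 42 with a higher and 20 with a lower change in mature cells. Both larger counts hold Ifitm6 and Ngp, genes of the selection rule whose calls are no findings. Without them 33 genes remained for E2-KO, 14 higher and 19 lower, and 60 for G12D/E2-KO, 40 higher and 20 lower. With the rule genes counted, DESeq2 called 11 for E2-KO and 14 for G12D/E2-KO, and without WT T3 the edgeR counts were 14 and 19.

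Secondary granule genes were among those with a higher change in mature cells. Ltf in immature late granulocytes was 2210, 2497 and 2916 CPM in WT and 1438, 1381 and 1487 CPM in E2-KO, while in mature cells it was 4362, 5316 and 4792 CPM in WT and 5428, 5443 and 5230 CPM in E2-KO. The genotypes did not overlap in immature cells and overlapped in mature cells. The difference of changes was 0.97 ± 0.10 for E2-KO (adjusted p 1.3e-07 from edgeR), and for G12D/E2-KO it was 1.11 ± 0.10 (2.1e-08). Anxa1, annexin A1, which restrains inflammation, showed a like pattern: it was 1176 to 1442 CPM in immature WT cells and 742 to 814 CPM in immature E2-KO cells, against 2082 to 2339 and 1976 to 2384 CPM in mature cells, a difference of 0.75 ± 0.09. Cd177, a surface antigen of neutrophils, gave 0.43 ± 0.11 in E2-KO and 0.66 ± 0.11 in G12D/E2-KO. In each of these genotypes 4 of 12 secondary granule genes passed, all with the higher change in mature cells, beside 0.405% of all genes tested in E2-KO and 0.717% in G12D/E2-KO. The fourth was Lcn2 in E2-KO, at 0.30 ± 0.08, and Lyz2 in G12D/E2-KO, at 0.29 ± 0.08.

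Cdk6 was among the genes with a lower change in mature cells. In immature cells it was 79.7 to 159 CPM in WT and 93.5 to 132 CPM in E2-KO, which overlapped. In mature cells it was 55.0, 35.5 and 38.8 CPM in WT and 15.6, 25.3 and 12.5 CPM in E2-KO. The difference was -1.25 ± 0.23 for E2-KO (adjusted p 1.9e-04 from edgeR), and for G12D/E2-KO it was -1.10 ± 0.17 (1.9e-06). Vimp, a selenoprotein of the endoplasmic reticulum, and Fxyd5 differed by -1.11 ± 0.24 and -0.96 ± 0.18 in E2-KO. Nkg7 and Ms4a3 gave -0.71 ± 0.15 and -0.46 ± 0.10 there. They were the 2 of 9 genes tested of the primary granule list that passed, beside 0.405% of all genes, and DESeq2 called 0 of that list. In G12D/E2-KO Mmp9 had the fifth largest positive difference, 1.57 ± 0.36 (adjusted p 0.014): mature cells held 220, 159 and 136 CPM against 99.8 to 125 CPM in WT, and immature cells 7.63, 4.56 and 0 CPM against 3.90 to 15.9 CPM. The positive differences of Ccl5, Tex15, Ccl6 and Ifitm1 and the negative ones of Aif1, H2-Aa and Psmg1 rested on genes under 40 CPM in mature cells, and that of H2-Aa turned to 0.94 with a granulocyte cut of 2000 (adjusted p 0.81).

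**Figure D5:**
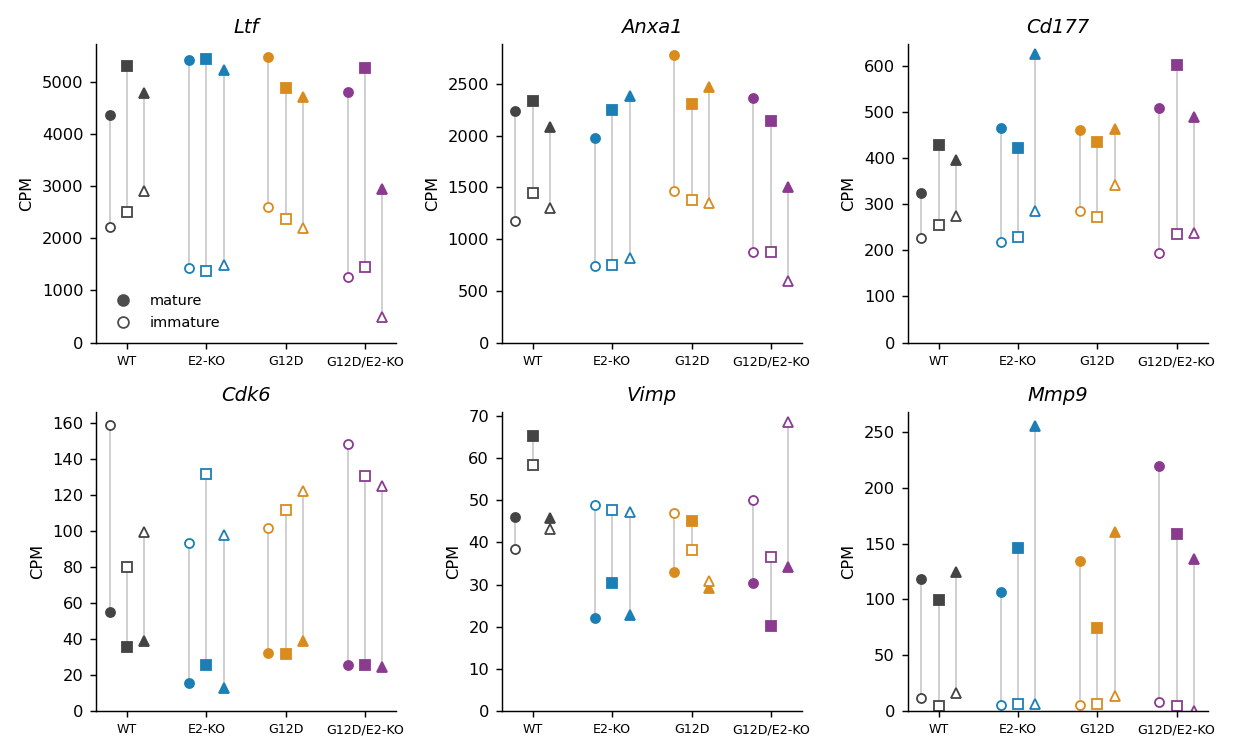
CPM of 6 genes in mature (filled) and immature (open) late granulocytes of each library, joined by a line, by genotype and with marker shapes for T1, T2 and T3. For Ltf and Anxa1 the open symbols of E2-KO and G12D/E2-KO lie below those of WT while the filled symbols of E2-KO lie near WT, and for Cdk6 the filled symbols of E2-KO lie at 12.5 to 25.3 CPM, below the 35.5 to 55.0 CPM of WT.

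The difference test depends on where the classes were split. With a maturity cut of 5 the E2-KO count was 4 and the G12D/E2-KO count 20, and Ltf in E2-KO was 0.90 with an adjusted p of 0.69, a call also lost under 4 other settings, while Anxa1 (0.73, adjusted p 1.2e-06) and Cdk6 (-1.04, 0.0049) passed. The median granulocyte score of immature cells, which sums S100a8, S100a9, Camp and Ngp per 10000 UMIs, was 3241 to 3950 in WT, 2497 to 3020 in E2-KO and 1707 to 2703 in G12D/E2-KO, so the immature classes compared were not equal in this score, and its part in these differences was not tested.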

How the data were processed

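Bone marrow cells enriched for c-Kit were measured with a droplet kit that reads the 3′ ends of transcripts. The deposited tables hold UMI counts per gene and cell, which the authors made with Cell Ranger against mm10 after leaving out cells with a high mitochondrial share and doublets called with Scrublet. No doublet caller was run again. G12D T1 cells with a cosine similarity above 0.9 to a G12D/E2-KO T1 cell (square-rooted counts, genes ranked 301 to 8300 by total UMIs) were removed.

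The members, gene lists and tests were chosen with earlier results of these data known. UMIs of mature cells were summed per library and fitted with edgeR 4.0.16 (quasi-likelihood, TMM, genotype and time as terms, Benjamini-Hochberg adjustment) in R 4.3.3. The second fit held mature and immature sums with a term per library. The edgeR filter on low counts left 8718 and 8646 genes. Fold changes are log2 with SE. DESeq2 1.42.0 was an alternative. Time points come from the labels and entered as a block. Over 18 pairs of libraries of the same time, deviations from the genotype mean correlated at -0.12 to 0.29 (median 0.028). Shares were compared by exact sign-flip permutation tests. The fits were tested on simulated data.

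Named genes were Ezh2 and Nras, the 10 largest changes each way among genes past an adjusted p of 0.05 with an average of at least 5 log2 CPM and the same direction at 3 of 3 times, genes of the lists past that threshold, the 15 largest and 15 smallest ratios between the classes, and the 5 largest differences between the classes each way. The text describes a part of these. Bmi1, Stfa2 and the other list genes were named through their lists, and Cd3d, Mxd1, Klf2, Selplg, Itga4 and Ifi27l2a were chosen after their values were seen. Tables were made in Python 3.11.15 with pandas 2.3.3, numpy 2.4.6 and scipy 1.17.1, and figures with matplotlib 3.10.9. Intervals cover counting error. A list gene past the threshold is not reported here.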

Additional observations from a re-analysis of the deposited data

Results flagged for a closer look

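Tests of a difference between genotypes or between classes gave the results here, which are values without an explanation. For the interaction 2 genes were called, Pttg1 at -3.84 and Cap1 at -1.68 on the log2 scale. WT alone lacked Mx1-Cre, so Cre cannot be told apart from the alleles in this test. The change in E2-KO differed between mature and immature late granulocytes for 35 genes, with the largest positive differences in Rab3ip (3.54), 6430548M08Rik (1.28), Ncapd3 (1.01), Ltf (0.97) and Chil1 (0.79) and the largest negative ones in Cxcl12 (-5.31), Cdk6 (-1.25), Vimp (-1.11), Fxyd5 (-0.96) and Calr (-0.78). Cxcl12 and Rab3ip rested on few counts in mature E2-KO cells. Cxcl12 had 1, 0 and 1 UMIs there against 100, 11 and 55 UMIs in WT and passed in 10 of 12 fits that left out a library, with an adjusted p of up to 0.78, so its value is no measured fold. Rab3ip had 7, 7 and 6 UMIs in E2-KO against 9 to 11 in WT and passed in 8 of 12. For G12D 2 genes differed, Cxcl12 (-5.09, on 0, 4 and 8 UMIs in mature G12D cells) and Vcam1 (-1.40). For G12D/E2-KO 62 genes differed, and here as in E2-KO the count holds Ifitm6 and Ngp of the selection rule. The genes were led by Ccl5 (2.02), Tex15 (1.94), Ccl6 (1.90), Ifitm1 (1.81) and Mmp9 (1.57) on the positive side and Aif1 (-2.36), H2-Aa (-1.88, but 0.94 with a granulocyte cut of 2000), Psmg1 (-1.24), Vcam1 (-1.20) and Cdk6 (-1.10) on the negative side.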

How the results depend on the processing

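Counts of called genes moved by over 1.5 times under these settings, and the cause was not tested unless the setting itself shows it. For E2-KO against WT the count was 211 with no filter on low counts, 160 with only those genotypes, 31 without T3, 46 with a maturity cut of 20 and 37 with the tables as deposited. For G12D against WT it was 60 with no filter and 61 with only those genotypes. For G12D/E2-KO against WT it was 166 with DESeq2, 473 with no filter, 174 with a cut of 20 and 161 as deposited. For G12D/E2-KO against G12D it was 127 with no replicate block (time left out of the fit), 334 with no filter, 112 with a cut of 20 and 3 as deposited, where the G12D T1 table holds G12D/E2-KO T1 cells. For the interaction it was 6 with DESeq2, 23 with no filter, 12 without T3, 1 as deposited and 5 in cells scoring under 50, a setting chosen after seeing the data. Without the block E2-KO against WT gave 72. The pairing by time was not dropped for the class differences, whose fit keeps a term per library.

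For the class difference in E2-KO the count was 11 with DESeq2, 12 without T3, 4 with a maturity cut of 5, 10 with a granulocyte cut of 2000 and 59 under a score of 50. In G12D it was 1 with DESeq2, 5 with no filter, 0 with a maturity cut of 5, 5 with a granulocyte cut of 500, 1 with a cut of 2000 and 5 as deposited. In G12D/E2-KO it was 14 with DESeq2, 35 without T3, 20 with a maturity cut of 5, and 104 and 9 with granulocyte cuts of 500 and 2000. Leaving Ifitm6 out of the maturity cut gave share ratios of -1.48 and -0.72 for Ezh2 deletion.

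Leaving out 1 library at a time gave 27 to 150 genes for E2-KO, 5 to 35 for G12D, 83 to 474 for G12D/E2-KO against WT, 73 to 303 against G12D, 2 to 8 for the interaction, and 14 to 47, 1 to 4 and 19 to 73 for the class differences of E2-KO, G12D and G12D/E2-KO. Share ratios ran from -1.42 to -0.95 of all cells and -0.46 to -0.27 of late granulocytes for Ezh2 deletion, and from 0.35 to 0.74 and 0.13 to 0.31 for NRas G12D. For single named genes, 3295 values stayed called or stayed uncalled, and 773 kept direction and lost the call. Among genes called in the main fit 2 values turned: Pf4 in G12D/E2-KO against WT (0.36, granulocyte cut of 500) and the H2-Aa class difference (0.94, cut of 2000). For genes not called in the main fit, such as Nras, a turn of direction was not counted.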
